A study of Mus musculus with 12 samples.

Results

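Ribosome-bound RNA of CA1 pyramidal neurons was examined for 8 genes that set the entry into the cell cycle: the D-type cyclins Ccnd1, Ccnd2 and Ccnd3, their kinases Cdk4 and Cdk6, the inhibitors Cdkn1a (p21) and Cdkn1b (p27), and Rb1, the retinoblastoma protein that the kinases act upon. The members were chosen by gene symbol from the 24079 genes of the count table, and Ccnd1 was placed among them with its difference between genotypes already known, so that its difference is described here with no p. All 8 members passed the filter of 15 reads summed over the 12 libraries, as did 17823 genes in all. The comparison was made between 6 wild-type (WT) and 6 Fmr1 knockout (Fmr1-/y, KO) libraries, each prepared from the pooled hippocampi of 4 to 6 mice. The knockout mice lack FMRP, the RNA-binding protein that is missing in fragile X syndrome, and the controls were their wild-type male littermates. Both groups carried the Wfs1-CreERT2 transgene, a tamoxifen-inducible Cre driven by the Wfs1 promoter, and the RiboTag allele, from which Cre activity yields the ribosomal protein Rpl22 with an HA tag. Mice aged 2 to 6 months received tamoxifen at 100 mg/kg for 3 days and were used 1 week later, and tagged ribosomes with their mRNA were pulled down from the whole hippocampus with an antibody against HA. Only cells in which the Wfs1 promoter is active should be tagged, so that the values describe mRNA on ribosomes of these cells plus whatever RNA of other cells was carried through the pulldown.

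D-type cyclins are the regulatory subunits of CDK4 and CDK6. The active kinases phosphorylate the retinoblastoma protein, which then releases the E2F transcription factors and lets a dividing cell move from G1 into DNA replication, while p21 and p27 bind the cyclin-kinase complexes and restrain them. Pyramidal neurons left the cell cycle before birth, yet D-type cyclins continue to be expressed in the adult hippocampus, and Ccnd2 is known for its part in the birth of new granule neurons in the dentate gyrus.

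The D-type cyclins bind the retinoblastoma protein through a short motif near their first residue, a leucine, any residue, a cysteine, any residue and a glutamate. The starts of the 3 coding sequences are shown because this motif is the feature that joins the cyclins to Rb1, and because the genes whose reads were counted are related in sequence. The sequences were taken from GENCODE M21 (build GRCm38), run 5′ to 3′ on the coding strand from the start codon, and carry the 5 motif codons in capitals.
Ccnd1: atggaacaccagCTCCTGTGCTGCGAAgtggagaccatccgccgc
Ccnd2: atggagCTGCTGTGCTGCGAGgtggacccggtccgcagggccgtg
Ccnd3: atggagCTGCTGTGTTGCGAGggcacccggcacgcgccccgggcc

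The motif spans residues 5 to 9 of cyclin D1 and residues 3 to 7 of cyclins D2 and D3. The coding sequences run over 885 bases in Ccnd1, 867 bases in Ccnd2 and 876 bases in Ccnd3. Identity over the longer coding sequence was 67.6% between Ccnd1 and Ccnd2, 65.9% between Ccnd1 and Ccnd3 and 68.3% between Ccnd2 and Ccnd3. Cdk4 and Cdk6 were identical at 65.5% of positions and Cdkn1a and Cdkn1b at 52.6%. Across these pairs, no run of identical bases between any of their transcripts exceeded 23 bases, against reads of 50 cycles.

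The genes lie apart from each other in the genome, at these positions of RefSeq on GRCm38. Ccnd1 occupies chr7:144929931-144939831 on the minus strand, Ccnd2 chr6:127125162-127152188 on the minus strand, and Ccnd3 chr17:47505051-47599689 on the plus strand. Cdk4 lies at chr10:127063535-127067288 and Cdk6 at chr5:3341004-3531008, both on the plus strand. Cdkn1a lies at chr17:29090979-29100722 and Cdkn1b at chr6:134920401-134925525, both on the plus strand, and Rb1 at chr14:73192858-73325951 on the minus strand. No member shares an exon with another gene of the same strand. Each member other than Cdkn1b overlaps an exon of the opposite strand, among them exons of Bysl under Ccnd3, of Tspan31 under Cdk4 and of Lpar6 and Rcbtb2 under Rb1, and the authors' counting used the strand of the reads. A search for pseudogenes named after a member found Ccnd3-ps for Ccnd3 and none for the others. Pseudogenes with other names were not searched for.

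Depth was 39400980 to 55745464 counted reads in the WT libraries and 43106629 to 65565479 in the KO libraries. Fmr1 itself had 1971 to 2608 reads in the WT libraries, 0 reads in 5 KO libraries and 1 read in KO replicate 2. The 8 markers of CA1 pyramidal neurons were all detected, led by Camk2a and Wfs1, and none of the markers of other hippocampal cells was at 0. Levels are given as counts per 1000000 reads (CPM), scaled by edgeR's TMM factors, with the SD over 6 libraries of a genotype.

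Ccnd1 mRNA on tagged ribosomes was lower in the KO libraries. The WT libraries ranged from 141.4 to 177.5 CPM with a median of 151.0, and the KO libraries from 102.0 to 129.9 CPM with a median of 114.9. All 6 KO libraries lay below all 6 WT libraries, and the groups did not overlap. The mean was 153.8 ± 12.2 CPM (SD, n = 6) in WT and 116.0 ± 9.94 CPM (SD, n = 6) in KO, or 75.4% of the WT mean. The log2 fold change of KO over WT was -0.41 with a standard error of 0.07. A fall of this mRNA cannot be told apart in these pooled pulldowns from a smaller contribution of the cells that carry it. Of all 17823 genes, 0.41% were lower in every KO library than in any WT library and 0.623% were separated in either direction, which stands here as background since Ccnd1 was chosen for this contrast. The level is backed by 4893 to 9549 reads per library. The WT library with the highest value, replicate 1, stood apart from the other 5 WT libraries, which lay between 141.4 and 151.8 CPM, and without it the log2 fold change was -0.36.

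**Figure D1:**
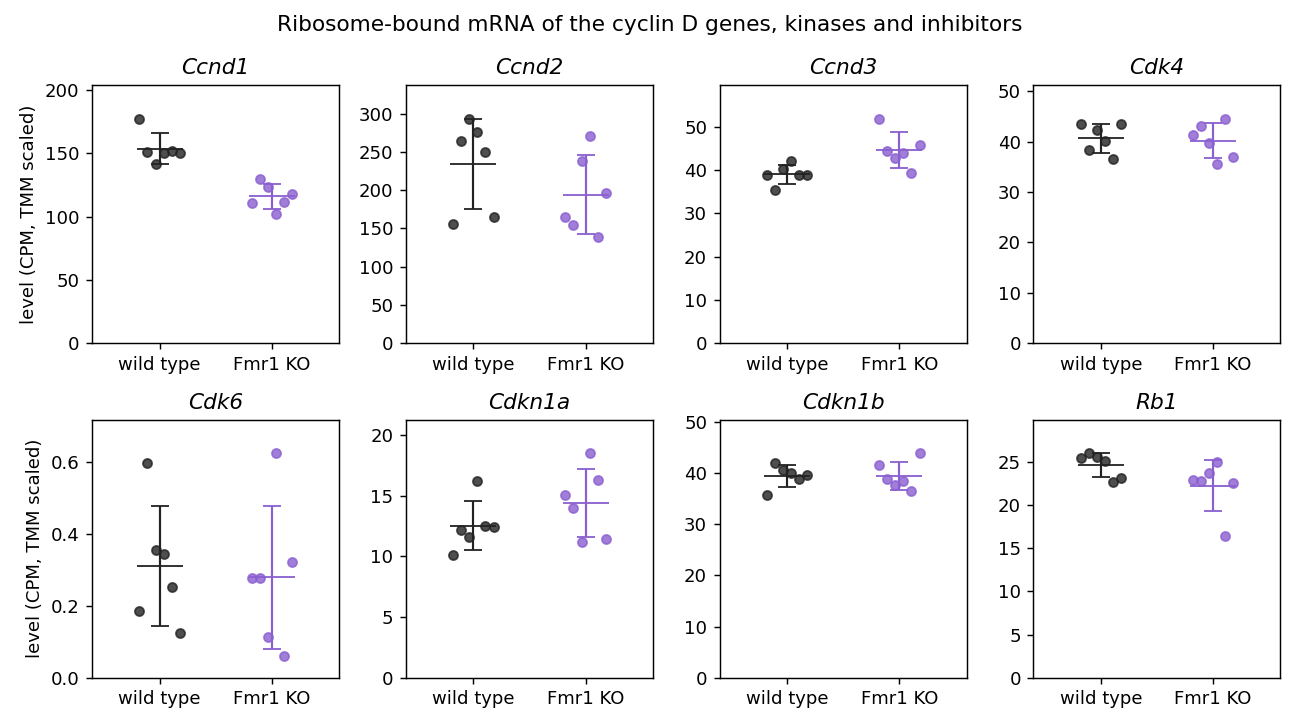
Level of each member (CPM, TMM scaled, linear axis from 0 with its own range per gene) in the 6 wild-type (black) and 6 Fmr1 KO (purple) libraries. Points are libraries, bars the mean ± SD. Ccnd1 is the gene whose groups do not overlap, Ccnd2 spreads from 138.9 to 293.9 CPM across both genotypes, and Cdk6 stays below 0.63 CPM.

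Ccnd2 varied more among libraries than between genotypes. The WT libraries ranged from 155.6 to 293.9 CPM with a median of 257.3, and the KO libraries from 138.9 to 271.0 CPM with a median of 180.7. In 2 KO libraries Ccnd2 lay below all WT libraries, and the groups overlapped widely. The mean was 234.2 ± 59.2 CPM in WT and 193.9 ± 51.7 CPM in KO (SD, n = 6 each), with a log2 fold change of -0.27 and a standard error of 0.17 (edgeR adjusted p = 0.768). The coefficient of variation was 25.3% in WT and 26.6% in KO, against 7.96% and 8.57% for Ccnd1.

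Ccnd3 had a mean of 39.0 ± 2.21 CPM in WT and 44.7 ± 4.15 CPM in KO (SD, n = 6 each). The WT libraries ranged from 35.4 to 42.1 CPM with a median of 38.8, and the KO libraries from 39.3 to 51.9 CPM with a median of 44.2. Of the 6 KO libraries, 5 exceeded every WT library and all 6 exceeded the WT median, but the groups overlapped. The log2 fold change was 0.20 with a standard error of 0.07, and it did not pass the threshold over all genes (edgeR adjusted p = 0.475).

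The kinases did not pass the test. Cdk4, a catalytic partner of the D-type cyclins, had 35.5 to 44.6 CPM over the 12 libraries, with means of 40.7 ± 2.88 CPM in WT and 40.2 ± 3.54 CPM in KO (SD, n = 6 each). Its log2 fold change was -0.02 (edgeR adjusted p = 0.980), and the approximate 95% interval of the difference ran from -0.16 to 0.13. Cdk6 was close to absent, with 4 to 30 reads per library and a mean of 0.31 CPM in WT and 0.28 CPM in KO. At this depth a difference in Cdk6 was not detectable: its interval ran from -1.26 to 0.95 around a log2 fold change of -0.16 (edgeR adjusted p = 0.976).

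The inhibitors did not pass the test either. Cdkn1b had 39.5 ± 2.12 CPM in WT and 39.5 ± 2.75 CPM in KO (SD, n = 6 each), with an approximate 95% interval of the log2 difference from -0.13 to 0.13 (edgeR adjusted p = 0.999). Cdkn1a, which p53 induces and which varied more, ranged from 10.1 to 16.2 CPM with a median of 12.3 in WT and from 11.2 to 18.5 CPM with a median of 14.5 in KO. In 2 KO libraries it lay above all WT libraries, and the log2 fold change was 0.21 with a standard error of 0.13 (edgeR adjusted p = 0.771). It was 0.12 without KO replicate 4, the highest library.

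Rb1, the substrate of the kinases, had 24.7 ± 1.39 CPM in WT and 22.3 ± 2.98 CPM in KO (SD, n = 6 each). The WT libraries ranged from 22.7 to 26.01 CPM with a median of 25.3, and the KO libraries from 16.4 to 24.99 CPM with a median of 22.9. All 6 KO libraries lay below the WT median, while 4 of them lay within the WT range. The log2 fold change was -0.15 with a standard error of 0.09 (edgeR adjusted p = 0.743), and it was -0.08 without KO replicate 5, the lowest library.

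Counted over the members, 5 log2 fold changes were below 0 and 3 above, with a median of -0.08 beside 0.0042 for all genes tested. Of the 7 members other than Ccnd1, edgeR called 0 at an adjusted p under 0.05, where it called 4 genes in all, or 0.0224% of those tested. At an unadjusted p under 0.05 it called 1 of the 7, Ccnd3, where 7.96% of all genes were called. DESeq2 called 0 of the 7 at an adjusted p under 0.05, beside 0.471% of all genes, and limma voom called 0, where it called 4 genes in all. For Cdk6, DESeq2 gave no adjusted p, so it could not be called there.

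The order of the genes was then set by level per length, as CPM per kb of the longest GENCODE M21 transcript of each gene, over all 12 libraries. Ccnd1 had 36.1 ± 6.00 CPM per kb and Ccnd2 33.8 ± 9.01 CPM per kb (SD, n = 12 each). These first 2 did not differ beyond their spread: Ccnd1 exceeded Ccnd2 in 7 of 12 libraries, by 0.12 on the log2 scale on average (two-sided exact sign-flip permutation test, adjusted p = 0.353). This small difference was 0.049 without WT replicate 1 and 0.19 without KO replicate 4. Cdk4 followed with 19.7 ± 1.504 CPM per kb and lay below Ccnd2 in 12 of 12 libraries, by 0.73 on the log2 scale (exact permutation test, adjusted p = 0.00114). Ccnd3 had 10.9 ± 1.12 CPM per kb and lay below Cdk4 in all 12 libraries, by 0.86 on the log2 scale (exact permutation test, adjusted p = 0.00114).

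Cdkn1b, with 8.68 ± 0.514 CPM per kb, lay below Ccnd3 in 11 of 12 libraries, by 0.32 on the log2 scale (exact permutation test, adjusted p = 0.00171). Cdkn1a, with 6.47 ± 1.22 CPM per kb, was below Cdkn1b in 11 of 12 libraries, by 0.44 (exact permutation test, adjusted p = 0.00205). Rb1, with 5.04 ± 0.548 CPM per kb, was below Cdkn1a in 11 of 12, by 0.35 (exact permutation test, adjusted p = 0.00513). Cdk6 came last with 0.0256 ± 0.0152 CPM per kb and was lower than Rb1 by 7.88 on the log2 scale in all 12 libraries (exact permutation test, adjusted p = 0.00114). The p-values were adjusted over the 7 neighbouring pairs, and the smallest unadjusted p that 12 libraries allow is 0.000488. The length chosen matters for this order. With the median transcript length, or with the coding length, Ccnd2 came above Ccnd1. Ccnd3 came above Cdk4 with the median transcript length. With the coding length these 2 were not separated, at a log2 difference of Cdk4 over Ccnd3 of -0.10 (exact permutation test, adjusted p = 0.107). Rb1 came above Cdkn1a with the median transcript length, by a log2 difference of Cdkn1a over Rb1 of -2.33, and Cdkn1b above Ccnd3 with the coding length, by a log2 difference of Ccnd3 over Cdkn1b of -0.49. Which transcript was read is not known from counts per gene, and the authors counted reads on UCSC gene models, not on GENCODE M21. The p-values measure the spread between libraries and not an error in a length, which is the same in all 12.

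**Figure D2:**
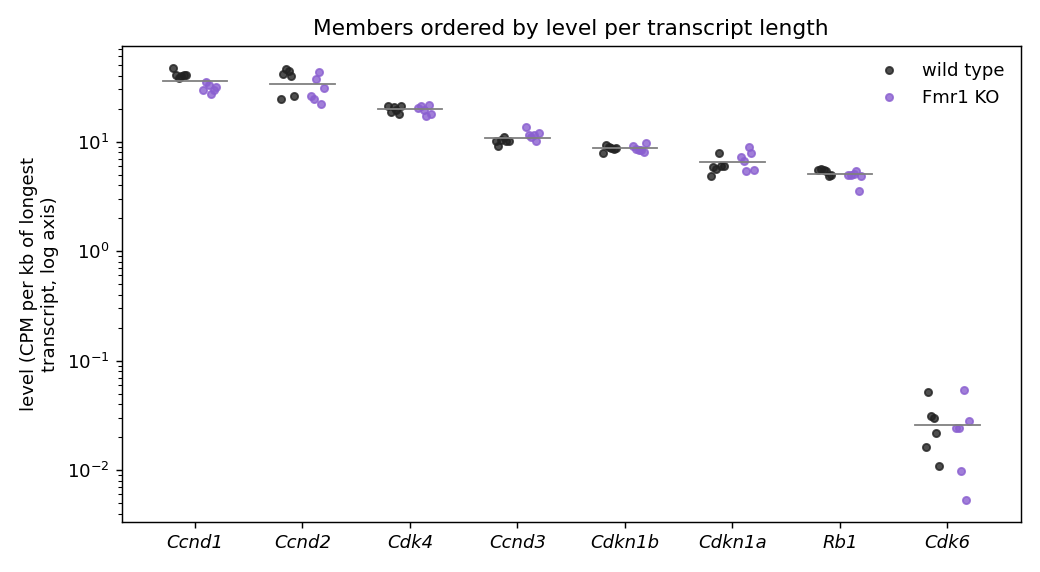
Level of each member per kb of its longest transcript (log axis) in the 6 wild-type (black) and 6 Fmr1 KO (purple) libraries, ordered by the mean of all 12 (grey line). The genes from Ccnd1 to Rb1 lie between 3.53 and 47.5 CPM per kb, and Cdk6 lies at least 6.63 log2 units below Rb1 in every library.

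Within the D-type cyclins, the summed level was 88.2 ± 7.43 CPM per kb in WT and 73.2 ± 7.64 CPM per kb in KO (SD, n = 6 each), with overlapping ranges of 76.4 to 94.8 and 62.0 to 81.7. Ccnd1 made up 47.0% of this sum in WT and 42.8% in KO, and Ccnd2 41.5% and 41.3%. The shares rest on the longest transcript of each gene, and with the median or the coding length Ccnd2 came above Ccnd1. Ccnd3 made up 11.5% in WT, with a range of 10.05% to 13.2%, and 16.0% in KO, with a range of 13.6% to 19.5%. The share of Ccnd3 did not overlap between genotypes. Since a share rises when the other cyclins are lower, and Ccnd1 was chosen for being lower, no test was made on it.

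**Figure D3:**
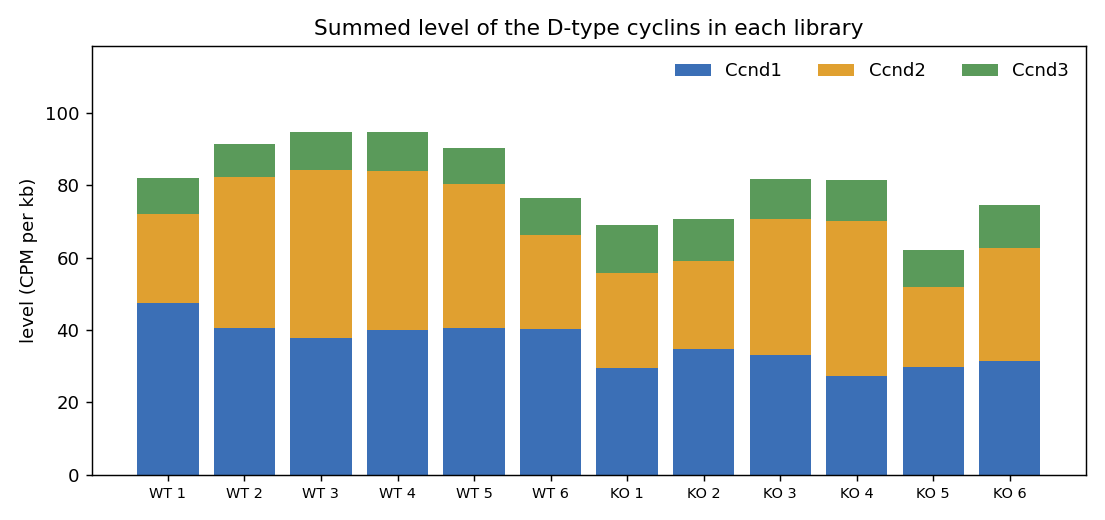
Stacked level of Ccnd1 (blue), Ccnd2 (orange) and Ccnd3 (green), in CPM per kb of the longest transcript, in each wild-type (WT) and Fmr1 KO library. The Ccnd2 part is the one that differs most from library to library, and the sums run from 62.0 to 94.8 CPM per kb.

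The level of Ccnd2 was then set beside a property of the libraries. The share of a library's reads that fell on genes whose longest transcript is 6 kb or more was computed after the data were seen, and it separated the libraries into 6 with 19.5% to 19.95% (WT replicates 2 to 5, KO replicates 3 and 4) and 6 with 17.8% to 18.5% (WT replicates 1 and 6, KO replicates 1, 2, 5 and 6). The longest transcript of Ccnd2 has 6330 bases, just over the cut, so that Ccnd2 is itself counted in this share. Ccnd2 had 237.9 to 293.9 CPM in the first set and 138.9 to 196.7 CPM in the second, with no overlap. Within the high-share set Ccnd2 averaged 271.3 CPM in 4 WT and 254.4 CPM in 2 KO libraries, and within the low-share set 160.2 CPM in 2 WT and 163.6 CPM in 4 KO libraries. With the share as a covariate in edgeR, the log2 fold change of Ccnd2 was -0.06 (adjusted p = 0.846). The share and its cut were chosen with the values known, so these values are a description only. The part of this property in the spread of Ccnd2 was not tested.

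The KO mean of Ccnd1 was 75.8% of the WT mean in the high-share set and 71.7% in the low-share set. Since its 12 libraries separate by genotype as a whole, they must do so within each set, and only the size of the difference is given here. With the covariate its log2 fold change was -0.44. Ccnd3 had 111% of the WT mean in the high-share set and 117% in the low-share set. Rb1 had 98.1% and 87.1%, and Cdk4 95.8% and 95.3%.

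**Figure D4:**
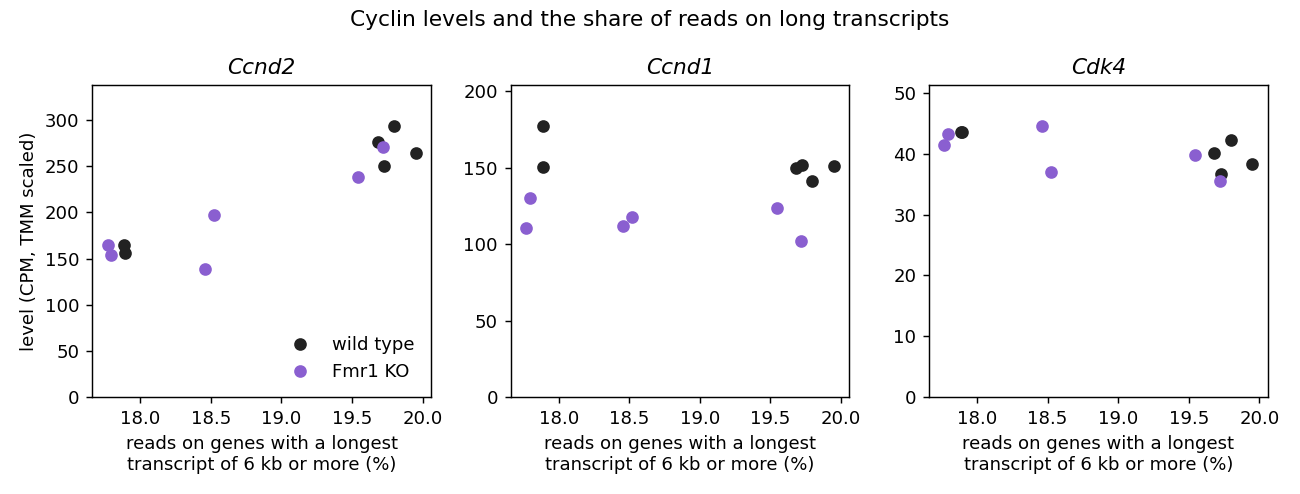
Level of Ccnd2, Ccnd1 and Cdk4 (CPM, TMM scaled, linear axis from 0) against the percentage of reads on genes with a longest transcript of 6 kb or more, for the wild-type (black) and Fmr1 KO (purple) libraries. Ccnd2 lies at 237.9 CPM or more in the 6 libraries with a share of 19.5% or above and at 196.7 CPM or less in the other 6. Ccnd1, whose genotypes do not overlap over all 12 libraries, lies between 102.0 and 177.5 CPM.

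The genes whose levels followed a member most closely were found by Pearson's r of log2 CPM within genotype, over 12 libraries and 13766 genes, as a description. Ccnd1 was closest to Smg5 (r = 0.94), Sertad4 (r = 0.93) and Aldh1b1 (r = 0.92). Among the genes closest to Ccnd2 were Setd7 and Ago2, both at r = 0.99. Cdkn1a was closest to 5330434G04Rik (r = 0.90), Coch (r = 0.90) and Usp54 (r = 0.89). The points share the depth and the long-transcript share of their library. Among the members other than Cdk6, which averaged under 1 CPM and was left out, the most opposed pair was Ccnd2 and Cdk4 (r = -0.74), followed by Ccnd1 and Cdkn1a (r = -0.64).

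The rest of the pathway was described with 73 further genes in 8 lists, all of which were tested in edgeR. At an adjusted p under 0.05, edgeR, DESeq2 and limma voom each called 0 of them, where they called 4, 84 and 4 of all 17823 genes. Of the 73, 38 had a log2 fold change below 0 and 35 above, with a median of -0.0047 beside 0.0042 for all genes, and 5 had an unadjusted p under 0.05 (Cdk14 with a lower mean, and Cdkn1c, E2f7, Cdk2 and Stat3 with a higher one), a share near the 7.96% of all genes tested. The median over a list lay between -0.08 for the relatives of the D-type kinases and inhibitors and 0.15 for the later cyclins and kinases.

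Among the relatives of the inhibitors, Cdkn1c (p57), the third member of the Cip/Kip family, had 15.6 ± 3.02 CPM in WT and 22.2 ± 6.04 CPM in KO (SD, n = 6 each), the smallest p of the lists (log2 fold change 0.51, edgeR adjusted p = 0.378). Cdkn2d (p19), an inhibitor of the Ink4 family, had 48.2 CPM in WT and 46.5 CPM in KO. Of the pocket proteins related to Rb1, Rbl2 (p130), which is typical of resting cells, had 34.97 CPM in WT and 35.3 CPM in KO, and Rbl1 (p107), which is typical of dividing cells, 0.78 and 0.84 CPM. Of the E2F and DP factors, Tfdp2, a partner of the E2F proteins, had 76.4 and 74.1 CPM, and E2f7, a repressor, 0.27 and 0.54 CPM (log2 fold change 0.98, adjusted p = 0.503).

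Some genes of later cell cycle steps had few reads. Of the 73 genes, 14 averaged under 1 CPM, and 8 of these belonged to the later cyclins and kinases or to the replication and mitosis genes. Among the 17823 genes tested, about 13766 averaged at least 1 CPM, so few reads were not particular to these lists. Cdk2, the kinase of cyclins E and A, had 1.59 ± 0.174 CPM in WT and 2.32 ± 0.634 CPM in KO (log2 fold change 0.54, edgeR adjusted p = 0.480, n = 6 each). Rrm2, a subunit of ribonucleotide reductase, had 1.44 and 1.89 CPM, and Pcna, the sliding clamp of DNA polymerase, 54.6 and 57.8 CPM.

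The lists with tasks beyond division held genes that were well covered. Cdk5r1, the p35 activator of the neuronal kinase CDK5, had 329.7 ± 24.6 CPM in WT and 324.2 ± 17.0 CPM in KO (SD, n = 6 each). Cdk14 had 166.5 and 150.6 CPM (log2 fold change -0.15, adjusted p = 0.573). Gsk3b, a kinase that marks cyclin D1 for degradation, had 228.4 and 214.8 CPM, and Cdk7, a subunit of the CDK-activating kinase, 77.5 and 72.4 CPM. Of the factors that act on the Ccnd1 promoter, Ctnnb1 (beta-catenin) had 426.6 and 422.8 CPM, and Stat3 had 40.0 and 45.1 CPM (log2 fold change 0.17, adjusted p = 0.575).

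**Figure D5:**
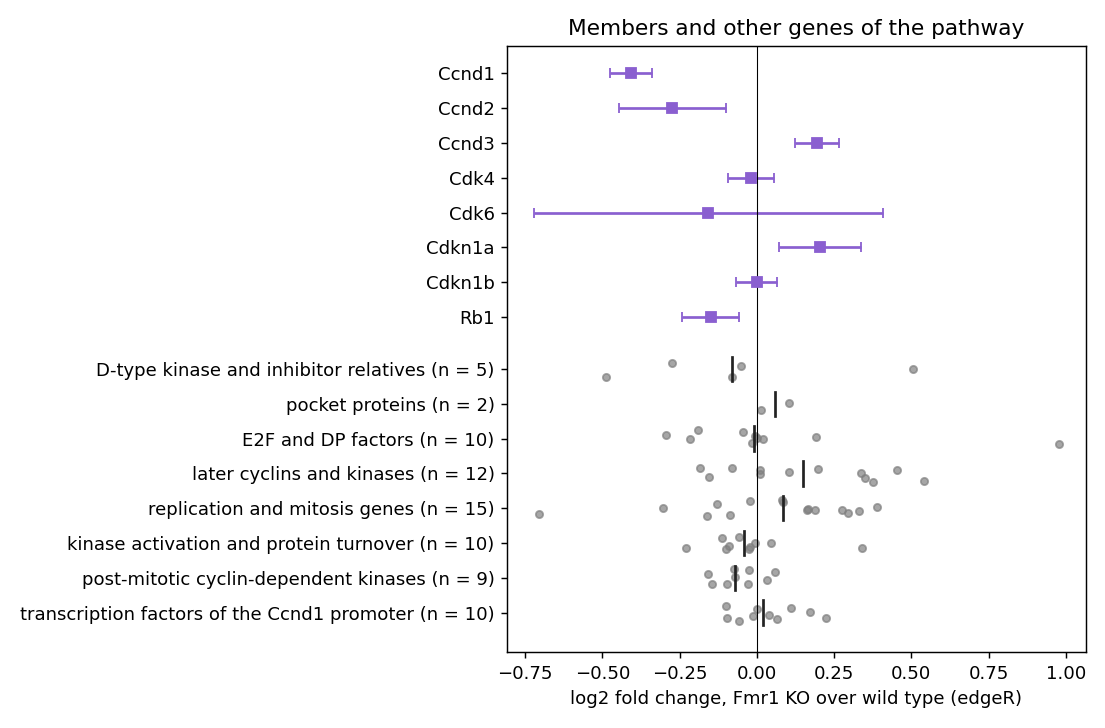
Log2 fold change of KO over wild type (edgeR) for the 8 members (squares, with the standard error as bars) and for the 73 other pathway genes by list (grey points, vertical jitter only, with the list's median as a black line). Ccnd1 lies at -0.41, and the medians of the lists lie between -0.08 and 0.15.

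Summed levels of cell type markers had different means in the 2 genotypes beside these values. The summed level of the 8 CA1 pyramidal markers was 9341 CPM in WT, with a range of 8183 to 10155, and 8672 CPM in KO, with a range of 7939 to 9398, and all 8 had a lower mean in KO. All 8 astrocyte markers, all 8 endothelial markers and all 6 choroid plexus markers had a higher mean in KO. Their sums were 968 CPM (845 to 1040) in WT and 1125 CPM (956 to 1438) in KO for astrocytes, 56.7 CPM (47.7 to 65.6) and 72.5 CPM (59.9 to 85.5) for endothelial cells, and 8920 CPM (6405 to 11899) and 12099 CPM (8331 to 17561) for the choroid plexus. The oligodendrocyte sum was 1364 CPM (1111 to 1669) in WT and 1213 CPM (999 to 1523) in KO, with 7 of 8 markers lower. Markers of CA2, CA3 and dentate neurons summed to 277 and 267 CPM, of interneurons to 158 and 144 CPM, of oligodendrocyte precursors to 89.1 and 92.8 CPM, and of microglia to 118 and 121 CPM. Of the 68 markers, edgeR, DESeq2 and limma voom each called 0 at an adjusted p under 0.05, where they called 4, 84 and 4 of all genes. At an unadjusted p under 0.05 edgeR called 15 markers, where 7.96% of all genes were called, and 13 of the 15 had a higher mean in KO.

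Expressed per 1000 CPM of the CA1 marker sum, Ccnd1 had 16.5 ± 1.24 in WT, with a range of 15.1 to 18.3, and 13.4 ± 0.864 in KO, with a range of 12.6 to 14.6 (SD, n = 6 each). On this scale the KO mean was at 81.1% of the WT mean, while the CA1 marker sum itself was at 92.8%. Camk2a made up most of that sum, with a mean of 6207 CPM in WT and 5826 CPM in KO. The size of the difference was not the same for each marker. Wfs1, whose promoter drives the Cre, averaged 1272 CPM in WT and 1054 CPM in KO, and Slc17a7 930 CPM in WT and 923 CPM in KO. The value per CA1 content therefore depends on the markers used. Ccnd1 was chosen for this contrast, so these values are a description. The part of the CA1 content in the level of Ccnd1 was not tested. The part of the other cell types in the values of Ccnd3, Cdkn1a and Cdkn1c, all with a higher mean in KO, was not tested.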

How the data were processed

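RNA was pulled down with HA-tagged ribosomes and sequenced from 6 wild-type and 6 Fmr1-/y libraries. The authors aligned the 50-cycle reads to mm10 and deposited raw counts per gene. The submitters' notes name bcl2fastq 2.17, TopHat2 2.1.1, Bowtie2 2.2.8 and HTSeq 0.6.1p1, and the study's methods state strand-aware counting. Its methods filtered genes under 15 reads in total and used DESeq2.

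The same filter was applied here. The main comparison used edgeR 4.0.16 (R 4.3.3; TMM scaling, quasi-likelihood test on genotype) with Benjamini-Hochberg adjustment over 17823 genes at 0.05. The standard error of a log2 fold change was taken as its absolute value over the root of the F statistic, and its approximate 95% interval is 1.96 standard errors either side. DESeq2 1.42.0, limma 3.58.1 voom, other scalings and filters, a replicate block and the omission of each library were alternatives, and the share of reads on genes with a transcript of 6 kb or more was added as a covariate after the data were seen. Neighbours in level per length were compared with a two-sided exact sign-flip permutation test (scipy 1.17.1). The fits were tested on simulated counts. The 30 pairs of libraries within a genotype differed by more than sampling noise (chi-square per degree of freedom 10.8 to 156). The study describes the pools as biological replicates. Log2 CPM for Pearson's r used a prior count of 2 and genes averaging at least 1 CPM.

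The members and lists were chosen with earlier results of these data known. Genes named are the 8 members, the gene with the smallest p and that with the highest level in each pathway list, those past the threshold, and the 3 genes most like Ccnd1, Ccnd2 and Cdkn1a, of which 1 is not reported here. Camk2a, Wfs1 and Slc17a7 were named after their values were seen. Coordinates are RefSeq's for GRCm38, matched by gene identifier, and transcript lengths, overlaps and coding sequences are GENCODE M21's.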

Additional observations from a re-analysis of the deposited data

Results flagged for a closer look

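In 34 groups of 6 libraries (a member, a marker sum or a similar value in 1 genotype), 3 had a highest or lowest library whose gap to the nearest other library, as a part of the whole range, exceeded Dixon's critical value at the 95% level. Chance gives about 1.7 such groups. Ccnd1 in WT replicate 1 was high at 177.5 CPM, against 141.4 to 151.8 CPM in the other 5 WT libraries (ratio 0.712). Rb1 in KO replicate 5 was low at 16.4 CPM, against 22.6 to 24.99 CPM in the other 5 KO libraries (ratio 0.718). The summed markers of CA2, CA3 and dentate neurons in WT replicate 1 were high at 300.9 CPM, against 267.6 to 275.7 CPM in the other 5 (ratio 0.757).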

How the results depend on the processing

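The direction of Ccnd2, Ccnd3, Cdkn1a and Rb1 was the same under every scaling, filter, tool and left-out library tried. That of Ccnd1 was the same too, but Ccnd1 was chosen for this contrast and its libraries separate by genotype. No left-out library could therefore change its direction. The count of members past the threshold, in which only Ccnd1 ever entered and which is no evidence about it since it was chosen for this contrast, was 1 with library size only, with all genes that had 1 read or more kept, in DESeq2, with the long-transcript share as a covariate and without KO replicate 2, and ranged from 0 to 1 over the left-out libraries. The count of genes past it was 84 in DESeq2, 10 with the covariate and 2 to 6 over the left-out libraries. It was 2 without WT replicate 4, 5 or 6 and without KO replicate 1, 4, 5 or 6. The causes were not tested. Log2 fold changes near 0 changed sign: Cdk4 was 0.0060 with library size only and -0.050 to 0.015 over the left-out libraries, Cdk6 was 0.20 with the covariate and -0.56 to 0.13 over the left-out libraries, and Cdkn1b was -0.00065 with DESeq2's size factors, -0.00061 in DESeq2, -0.00044 in limma voom and -0.032 to 0.023 over the left-out libraries. None of these 3 passed the threshold under any setting, and Cdk6 had no adjusted p in DESeq2.

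The order by level per length depended on the length used. With the median transcript length, the log2 difference was -1.77 for Ccnd1 over Ccnd2, -0.16 for Cdk4 over Ccnd3 and -2.33 for Cdkn1a over Rb1. With the coding length it was -0.67 for Ccnd1 over Ccnd2, -0.10 for Cdk4 over Ccnd3 and -0.49 for Ccnd3 over Cdkn1b. Of these, the difference of Cdk4 over Ccnd3 did not pass (exact permutation test, adjusted p = 0.107). In the 6 WT libraries alone, where the smallest possible p is 0.03125, differences of 0.86 (Ccnd2 over Cdk4), 0.97 (Cdk4 over Ccnd3), 0.22 (Ccnd3 over Cdkn1b), 0.54 (Cdkn1b over Cdkn1a), 0.17 (Cdkn1a over Rb1) and 7.79 (Rb1 over Cdk6) no longer passed after adjustment, and in the 6 KO libraries alone 0.35 (Cdkn1b over Cdkn1a) did not.

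WT and KO libraries share replicate numbers, but nothing says what a number stands for, and the deviations of same-numbered libraries correlated at -0.08 to 0.09 over all genes and at -0.44 to 0.60 over genes above a log2 CPM of 5, where numbers 1, 3 and 4 gave 0.38, 0.43 and 0.60 and number 2 gave -0.44. With the replicate number as a block, 0 members and 4 genes passed the threshold, the log2 fold change of Ccnd1 was -0.41 and that of Cdkn1b was -0.00059. Depth limits Cdk6, at 4 to 30 reads per library.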
